A study of Mus musculus with 6 samples.

Results

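The 9 genes described here carry the insulin signal in muscle and bring glucose into the fiber, and they are Slc2a4, Slc2a1, Insr, Irs1, Irs2, Akt1, Akt2, Tbc1d1 and Tbc1d4. They were taken by name from the 21938 protein-coding gene entries of the GENCODE annotation of the mouse genome (GRCm38) and by no threshold on a measured value, though the choice was made with earlier results of these data known. For each gene, every Maf peak and H3K27ac region was counted that lay in the gene or within 50 kb of any of its transcript starts, a stretch called the window from here on. Maf belongs to the bZIP family of transcription factors. H3K27ac, acetylated lysine on the tail of histone H3, marks promoters and enhancers in use. ChIP-seq maps of the factor and of the mark came from nuclei of the gastrocnemius and quadriceps muscles of wild-type C57BL/6N mice aged 2 months, with 2 samples for Maf, 2 for H3K27ac and 2 inputs, which were not used here. No sample carried a treatment or a mutation, so the data hold no contrast between conditions. The sources used here do not say how many animals entered a ChIP sample. The nuclei were not sorted by cell type, so a mark in few nuclei and a weak mark in many nuclei cannot be told apart.

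Insulin binds its receptor, which phosphorylates the adaptor proteins Irs1 and Irs2, and these recruit the lipid kinase PI3K that leads to activation of Akt. Akt phosphorylates the Rab GTPase-activating proteins Tbc1d4 and Tbc1d1, which then release the hold on vesicles that carry the transporter Glut4 to the surface. Muscle takes up most of the glucose that insulin clears from the blood, and contraction moves Glut4 through a partly separate route in which Tbc1d1 is prominent.

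Depth is unknown for every sample, since the deposited lists give positions only. The Maf list of replicate 1 held 74 peaks and that of replicate 2 held 5467 peaks of 281 bp each, and 55 peaks of the merged lists were in both. The H3K27ac lists held 44887 and 44987 regions, and 67.0% of their 52540 merged regions were called in both samples. As a check of the tissue, all 10 myofiber markers had H3K27ac within 1 kb of a start, with a median region of 12420 bp. It also lay there for all 5 endothelial, all 5 macrophage and all 5 fibro-adipogenic markers and for 0 of 4 hepatocyte markers, and this held in each sample. The median merged region was 5366 bp at the endothelial, 2280 bp at the macrophage and 9100 bp at the fibro-adipogenic markers, so long regions were not limited to myofiber markers. In the merged lists 4 of 6 adipocyte, 2 of 3 satellite cell and 2 of 3 Schwann cell markers had it, and in both samples 2, 1 and 1 did. Adipoq and Retn were unmarked in both samples. The share of other cell types in the H3K27ac of the insulin genes was not tested.

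Maf peaks lay in the windows of 6 of the 9 genes, namely Irs1, Irs2, Akt1, Akt2, Tbc1d1 and Tbc1d4, and there were 7 peaks in all, a pair of them at Akt2. Among all protein-coding genes 32.2% had such a peak. Each of the 7 peaks was in the list of replicate 2, and the list of replicate 1 had a peak in the window of 0 of the 9 genes, against 0.634% of all genes. Sequences of 5 of the 7 peaks follow, since they show the range from a Maf motif at the centre of a peak to none at all. They read along the plus strand of GRCm38 from RefSeq. Capitals mark TGCTGAC or TGCTGA (the core of the Maf motif, the longer form containing the shorter), the Maf full site with at most 2 mismatches, CAGCTG (an E-box of the myogenic factors) and TGACTCA or TGAGTCA (the AP-1 site). Matches on either strand were marked, so TGCTGAC on the minus strand reads as its reverse complement, and neighbouring matches can run together.
The Irs1 intron, chr1:82283652-82283932: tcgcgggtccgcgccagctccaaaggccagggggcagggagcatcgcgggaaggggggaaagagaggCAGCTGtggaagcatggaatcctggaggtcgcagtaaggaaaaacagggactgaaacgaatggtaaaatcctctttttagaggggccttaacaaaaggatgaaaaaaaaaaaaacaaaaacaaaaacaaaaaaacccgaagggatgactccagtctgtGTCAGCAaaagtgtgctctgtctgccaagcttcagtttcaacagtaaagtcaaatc
The Irs2 intron, chr8:10991976-10992256: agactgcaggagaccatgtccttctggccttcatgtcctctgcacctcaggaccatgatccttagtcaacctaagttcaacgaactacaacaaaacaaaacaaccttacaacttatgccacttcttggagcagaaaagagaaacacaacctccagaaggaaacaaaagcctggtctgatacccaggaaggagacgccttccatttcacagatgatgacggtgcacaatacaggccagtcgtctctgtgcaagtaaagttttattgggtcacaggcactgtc
The Akt1 window beside Adssl1, chr12:112617788-112618068: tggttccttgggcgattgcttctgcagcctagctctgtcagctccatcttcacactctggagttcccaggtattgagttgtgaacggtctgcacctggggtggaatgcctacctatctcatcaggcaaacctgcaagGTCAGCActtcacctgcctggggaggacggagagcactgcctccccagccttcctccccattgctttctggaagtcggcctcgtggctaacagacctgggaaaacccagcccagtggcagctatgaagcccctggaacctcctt
The Akt2 intron, chr7:27626552-27626832: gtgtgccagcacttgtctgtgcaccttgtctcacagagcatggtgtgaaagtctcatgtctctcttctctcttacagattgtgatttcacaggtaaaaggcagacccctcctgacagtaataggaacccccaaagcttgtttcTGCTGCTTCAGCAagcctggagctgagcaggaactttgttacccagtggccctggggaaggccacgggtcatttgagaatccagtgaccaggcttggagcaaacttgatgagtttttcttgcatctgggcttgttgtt
The Akt2 window in Ttc9b, chr7:27655809-27656023, the first 215 bases of the peak: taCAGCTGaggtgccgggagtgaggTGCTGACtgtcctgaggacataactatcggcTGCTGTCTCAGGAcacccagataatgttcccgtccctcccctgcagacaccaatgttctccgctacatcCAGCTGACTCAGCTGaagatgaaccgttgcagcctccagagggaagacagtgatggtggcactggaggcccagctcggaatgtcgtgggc

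In the Irs1 peak TGCTGAC stood on the minus strand 88 bp from the peak centre, and CAGCTG 70.5 bp from it. The Irs2 peak held none of the motifs searched. In the peak of the Akt1 window TGCTGAC lay on the minus strand exactly at the centre (0 bp). The peak in the Akt2 intron held a full site 9 bp from the centre and TGCTGA 12.5 bp from it. The peak in Ttc9b held the most matches, with TGCTGAC 112 bp from the centre, 2 full sites at 8 and 78 bp, 3 copies of CAGCTG and 1 AP-1 site, and the AP-1 site overlaps 1 full site and 2 of the CAGCTG copies.

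TGCTGAC was in 3 of the 7 peaks, against 22.8% of all 5466 peaks of replicate 2 on chromosomes and 4.18% of windows of the same length 1 kb to either side of them. TGCTGA was in 4 of 7 (50.8% of all peaks and 19.1% of the flanking windows) and the full site in 2 of 7 (12.5% and 1.14%). CAGCTG was in 3 of 7 (24.3% and 12.8%), the AP-1 site in 1 of 7 (11.5% and 4.60%), and the Mef2 motif in 0 of 7 (7.68% and 5.41%). The peaks of Irs2 and Tbc1d4 were the 2 with no motif, and 32.4% of all peaks had none. The Tbc1d4 peak was poor in G and C, at 33.1%, and the other 6 ranged from 46.6% to 59.1%. With 7 peaks, these counts describe the peaks and show no difference from the other peaks of the list.

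Each gene of the set had H3K27ac within 1 kb of a start in both samples. Over all protein-coding genes the share was 59.6% in the merged lists and 56.4% in both samples. What differed among the 9 genes was the extent of the mark. In the merged lists the longest region at a start was 5 kb or more in 5 genes, namely Slc2a4, Irs1, Irs2, Akt2 and Tbc1d1, and 9.88% of all genes and 16.6% of the genes with a marked start had one that long. Replicate 1 alone gave the same 5 genes, and replicate 2 alone gave 3, since Akt2 and Tbc1d1 then had 4847 and 4954 bp. A region of 10 kb or more was merged at 2 genes, Irs1 and Irs2, against 3.10% of all genes and 5.19% of those with a marked start. In replicate 2 alone only Irs1 reached this length. At Insr, Akt1 and Tbc1d4 the merged region at the start was between 2435 and 2649 bp, near the median of 2268 bp over all genes with a marked start, and at Slc2a1 it was shorter, at 1400 bp.

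**Figure D1:**
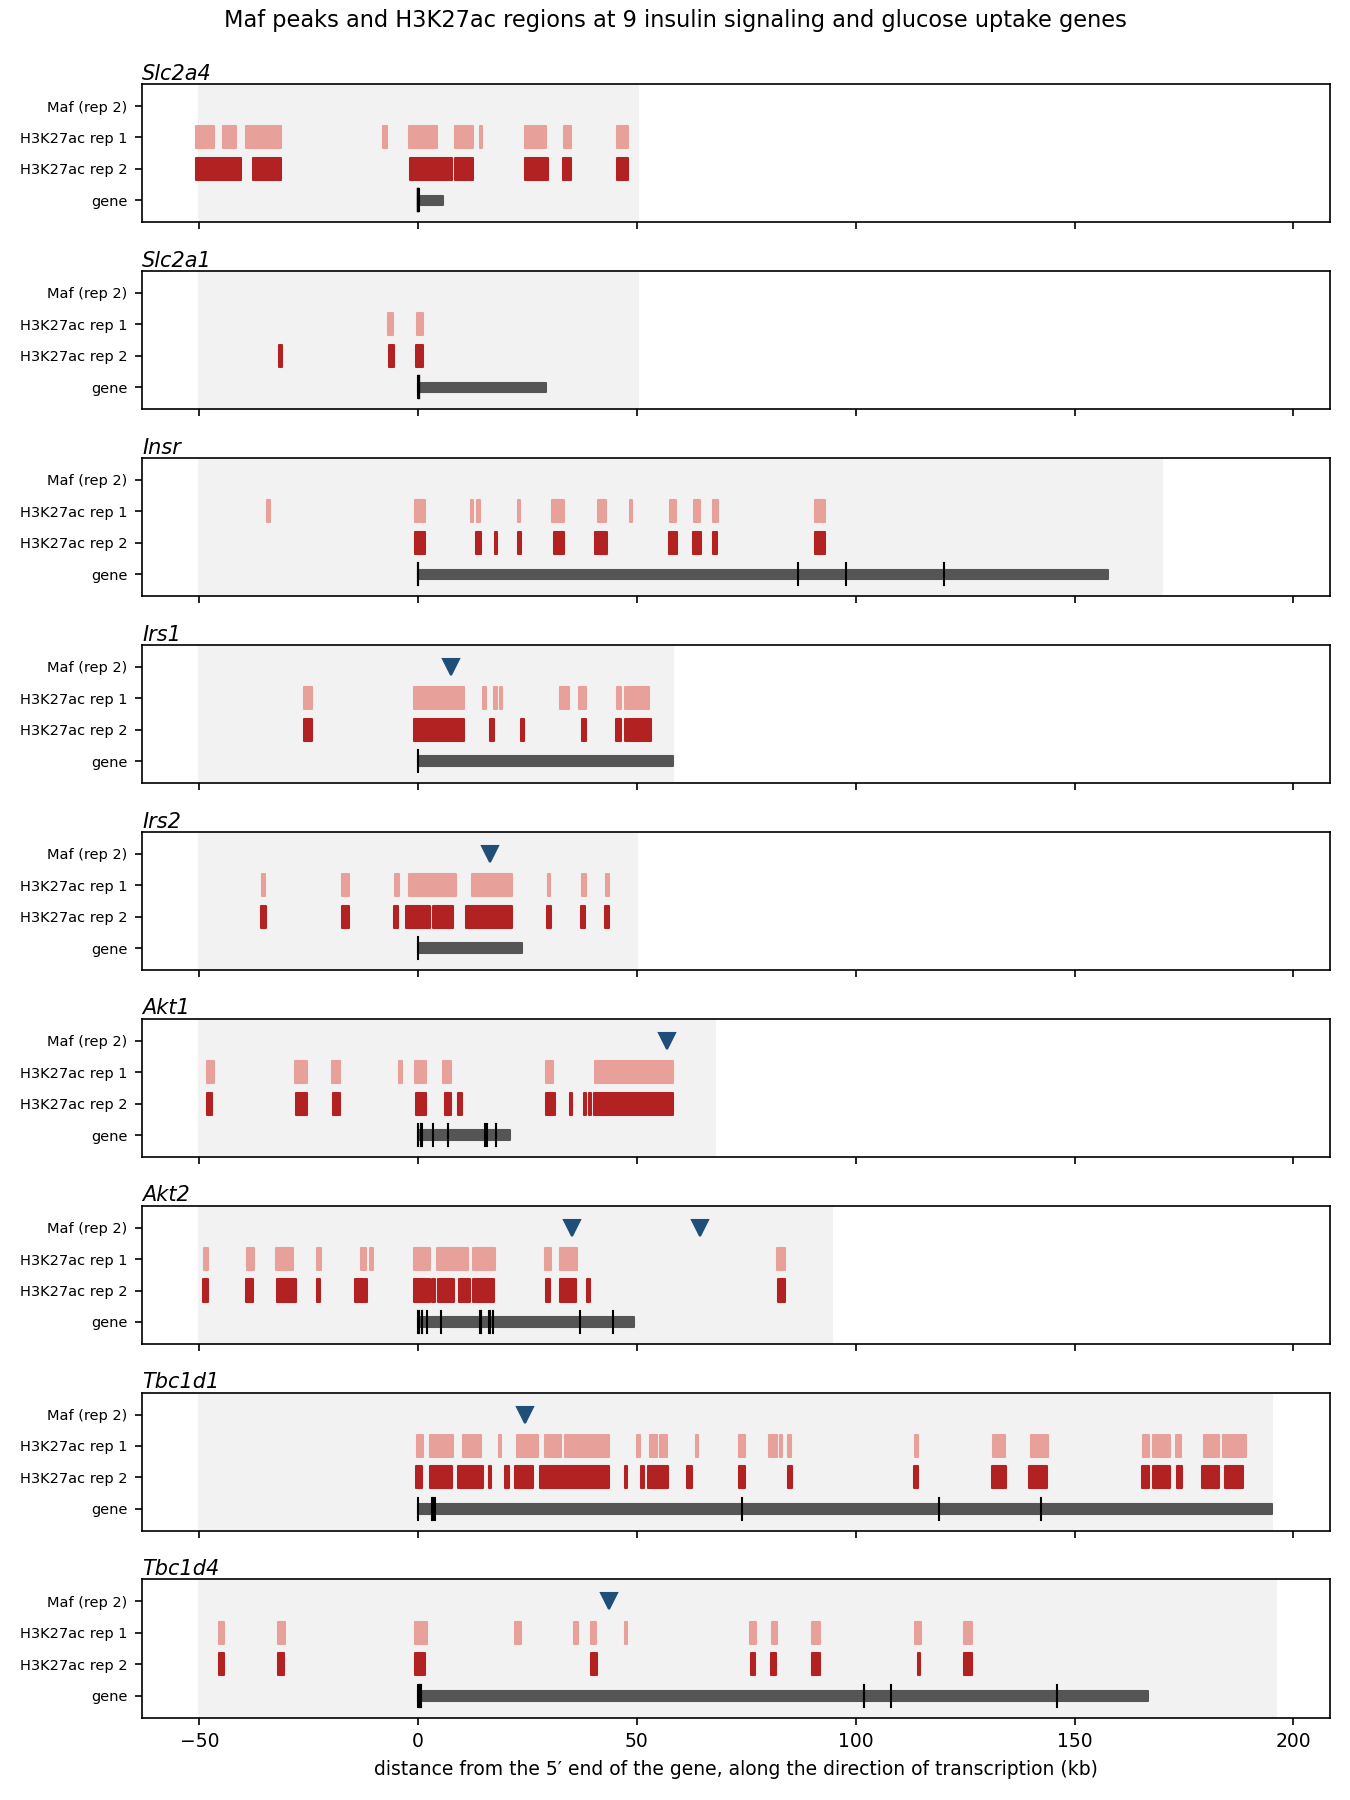
Maf peaks of replicate 2 (triangles) and H3K27ac regions of both samples (light and dark bars) at each gene, drawn by distance from the 5′ end of the gene in kb along the direction of transcription, with the gene as a grey bar, transcript starts as ticks and the window shaded. The 7 triangles lie at 6 genes, and every gene has H3K27ac at its 5′ end in both samples.

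Slc2a4 encodes Glut4, the glucose transporter that insulin and contraction bring to the surface of the fiber. The gene lies on the minus strand at chr11:69942539-69948188. H3K27ac covered 78.1% of the gene body in replicate 1 and 100% in replicate 2, where the median over all genes was 3.09% and 3.17%. The gene is short, at 5.65 kb, and these medians were not matched for gene length. The region at its start was 6477 bp long in replicate 1 and 9689 bp in replicate 2. Downstream of the 5′ end of the gene, this region reached 4.412 kb in replicate 1 and 7.759 kb in replicate 2. The gene ends at 5.649 kb, so in replicate 2 the region ran past the gene. The merged region also lay within 1 kb of a start of another gene. The 2 lengths lay at the 90.8th and 95.2th percentile of genes with a marked start in their own sample. H3K27ac covered 35.3% and 39.0% of the Slc2a4 window, the highest shares of the 9 genes. This window is dense in genes, with 10 others starting in it, and 7 of its 9 merged regions lay at the start of another gene. The region at the start of Slc2a4 itself is among these 7. Only 2 of the 9 regions had Slc2a4 as the gene with the nearest start. No Maf peak lay in the window, and the nearest Maf peak of replicate 2 was 67.0 kb from a start of the gene.

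Slc2a1, at chr4:119108711-119137983 on the plus strand, encodes Glut1, a transporter of basal glucose uptake that many cell types use. It had the least H3K27ac of the set. The lists gave 2 regions in replicate 1 and 3 in replicate 2, and they covered 2.47% and 3.26% of the window. The region at the start was 1343 and 1400 bp long, at the 16.6th percentile of all genes with a marked start in the merged lists. No region lay inside the gene away from the start, and the nearest Maf peak was 245.8 kb away. The 2 transporter genes were thus the extremes of the set in both samples for the share of the window covered.

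Insr encodes the insulin receptor, a tyrosine kinase at the cell surface, and lies on the minus strand at chr8:3122061-3279617. The region at its start was 2418 bp long in replicate 1 and 2308 bp in replicate 2, near the median of all genes. Of its 13 merged regions, 11 lay inside the gene away from the start, and 9 of the 13 were called in both samples. They were short, with the longest inside the gene at 2806 bp, and H3K27ac covered 9.12% and 9.70% of the gene body. The nearest Maf peak lay 1041.7 kb from a start of Insr, the farthest of the 9 genes.

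**Figure D2:**
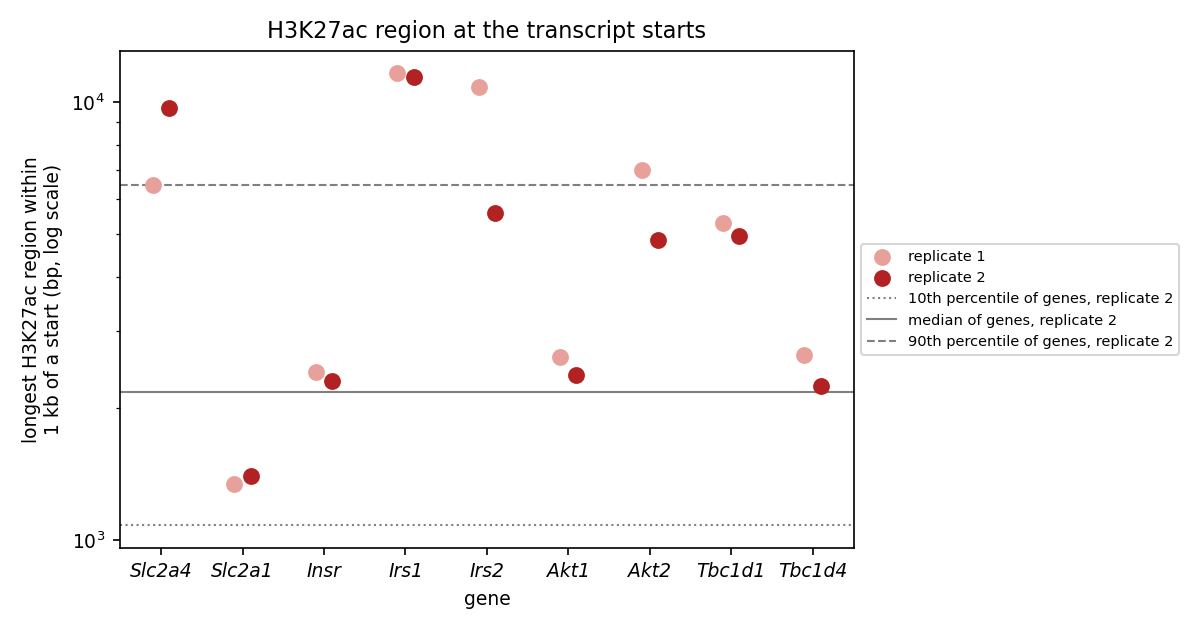
Length in bp, on a log scale, of the longest H3K27ac region within 1 kb of a start of each gene, with 1 point for each of the 2 samples and lines at the 10th percentile, median and 90th percentile of all genes with a marked start in replicate 2. The Irs1 points are at 11630 and 11426 bp, those of Slc2a1 at 1343 and 1400 bp, and Irs2 differs most between samples.

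Irs1, at chr1:82233101-82291416 on the minus strand, encodes an adaptor that links the receptor to PI3K. Its start lay in a region of 11630 bp in replicate 1 and 11426 bp in replicate 2. The Maf peak in its intron, 7624 bp downstream of the start, lay inside this region in both samples. It stood at position 1244 of 5467 in the Maf list, where position 1 is the top. Nothing in the lists says that this order is one of strength, for which the position serves as a stand-in. The Irs1 window held 10 merged regions, 6 of them in both samples, and 8 lay inside the gene away from the start. Only 5 of the 10 had Irs1 as the gene with the nearest start.

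Irs2 encodes the second of these adaptors and lies on the minus strand at chr8:10984681-11008458. H3K27ac covered 75.4% of the gene body in replicate 1 and 75.5% in replicate 2. At its start replicate 1 had 1 region of 10802 bp, and replicate 2 had the same stretch called in pieces, the longest of 5584 bp. The length at this start therefore depends on where the caller joined neighbouring regions, while the covered share of the window was alike, at 25.5% and 27.4%. A separate region of 9169 bp in replicate 1 and 10625 bp in replicate 2 lay farther into the gene. The Maf peak lay in that second region, in an intron 16342 bp downstream of the start, at position 768, the highest of the 7 peaks. All 8 merged regions of the Irs2 window were called in both samples, and no other protein-coding gene starts in this window.

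Akt1, at chr12:112653821-112674884 on the minus strand, encodes a serine kinase of growth and survival signaling. Its start region was of ordinary length, with 2620 bp in replicate 1 and 2378 bp in replicate 2. The longest region of its window was not at the gene. It had 17836 bp in replicate 1 and 18259 bp in replicate 2 and held the start of the muscle gene Adssl1, which encodes adenylosuccinate synthase. The Maf peak of the window lay in this region, between genes, at position 1209. It was 2117 bp from a start of Adssl1 and 39045 bp from the nearest start of Akt1, an internal one, and it was no longer counted for Akt1 when starts of protein-coding transcripts alone were used.

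Akt2 encodes the kinase of this family that is most closely tied to glucose uptake, and it lies on the plus strand at chr7:27591552-27640826. With 14 transcript starts, it had 4 separate H3K27ac regions at starts. The longest in replicate 1 had 7004 bp, and replicate 2 had that stretch called in 2 pieces. The longest in replicate 2 was another of the 4 regions, with 4847 bp there and 5033 bp in replicate 1. H3K27ac covered 40.5% and 39.0% of its gene body. One Maf peak lay in an intron, 1833 bp upstream of an internal start, in a region of 3822 bp in replicate 1 and 3525 bp in replicate 2. It stood low in the list, at position 4407. The other Maf peak of the window overlapped a coding exon of Ttc9b, 2034 bp from a start of that gene and 19896 bp from the nearest start of Akt2, at position 3104. It had no H3K27ac in either sample, and the nearest region was 17517 bp away. The peak with the most motif matches was thus the one farthest from H3K27ac.

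Tbc1d1, at chr5:64156305-64351486 on the plus strand, had the most H3K27ac regions of the set, with 23 in replicate 1 and 21 in replicate 2. It encodes a Rab GTPase-activating protein that AMP-activated kinase and Akt phosphorylate. Of its 26 merged regions 22 lay inside the gene away from the starts, and each had Tbc1d1 as the gene with the nearest start. The longest of them was 15870 bp in replicate 2, while in replicate 1 the same stretch was called in 2 pieces, the longer of 9932 bp. Both lengths exceed those of the longest region at its start, 5303 bp in replicate 1 and 4954 bp in replicate 2. H3K27ac covered 31.3% of the gene body in replicate 1 and 33.4% in replicate 2. The Maf peak lay in an intron at chr5:64180521-64180801, 20450 bp downstream of a start, at position 2262. It was inside a region of 4824 bp in replicate 1 and 4065 bp in replicate 2, and held CAGCTG 115.5 bp from its centre and no Maf motif.

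Tbc1d4 encodes AS160, the other Rab GTPase-activating protein of the set, a main Akt target in Glut4 traffic, and lies on the minus strand at chr14:101442360-101609191. The 2 genes are of similar length, at 195.2 and 166.8 kb. H3K27ac covered less of Tbc1d4, with 8.24% of the gene body in replicate 1 and 5.38% in replicate 2, below both values of Tbc1d1. The longest region inside the gene away from the start was 1974 bp. Its Maf peak, at chr14:101565518-101565798, lay in an intron 42828 bp downstream of a start, at position 3584, and had no H3K27ac within 2535 bp.

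**Figure D3:**
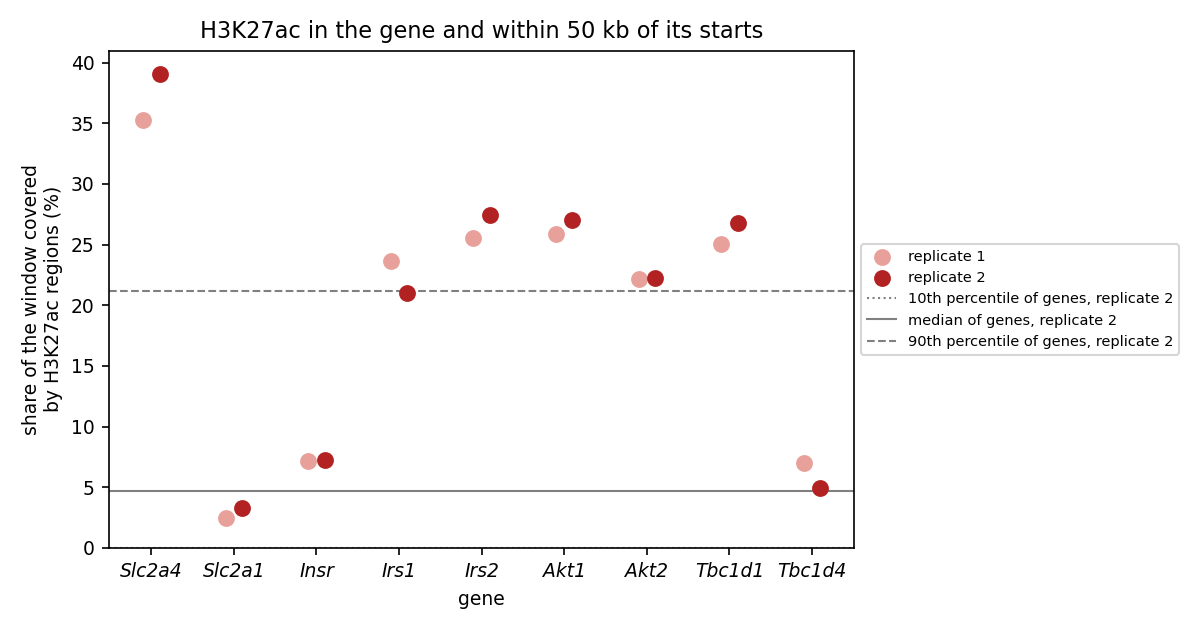
Share in percent of each gene's window that H3K27ac regions covered, with 1 point for each of the 2 samples and lines at the 10th percentile (at 0), median and 90th percentile of all protein-coding genes in replicate 2. Slc2a4 is highest at 35.3% and 39.0%, and Slc2a1, Insr and Tbc1d4 lie below 8% in both samples.

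Over the set, the 9 windows held 107 merged H3K27ac regions, of which 16 lay at a start of the gene, 55 elsewhere in the gene and 36 outside it. Of these regions 75 were called in both samples, 18 in replicate 1 alone and 14 in replicate 2 alone, and 19 lay at a start of another gene. The windows held 7.74 regions per 100 kb, and those of all protein-coding genes held 3.67. The median share of a window that was covered was 25.8% for the set and 5.42% for all genes. All 9 genes had H3K27ac at a start, and 59.6% of all genes did. The density and the covered share were not set beside genes with a marked start alone. Whether these contrasts are particular to insulin genes was not tested. By the covered share of the window the genes fell apart in the merged lists. Slc2a1, Insr and Tbc1d4 were near the middle of all genes, and the other 6 were between the 91.5th and the 99.0th percentile. Neighbouring genes add to this share. The Akt1 window held the region of 18259 bp at Adssl1. In the Slc2a4 window 7 of the 9 regions lay at the start of another gene, though these include the region at Slc2a4's own start. Of the gene body alone 21.9% was covered at Akt1, the 81.6th percentile, and 100% at Slc2a4, the 98.2th. These percentiles are over genes of all lengths, and Slc2a4 is short, at 5.65 kb.

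All genes include many that are silent in muscle, so the count of 6 genes with a Maf peak was also set beside narrower backgrounds. Among genes with H3K27ac at a start, 43.5% had a Maf peak in the window. Long windows catch more peaks, and of the genes with windows of 200 kb or more 48.1% had one, as did 2 of the 3 such genes in the set. The set had 5.06 Maf peaks per Mb of window against 3.63 for all genes. A Maf peak with H3K27ac was in the window of 5 of the 9 genes and of 26.1% of all genes. A peak lay inside 5 of the 9 genes and inside 11.9% of all genes. The gene's start was the nearest to a Maf peak for 5 of the 9 genes and for 17.2% of all genes. The shares for a peak with H3K27ac, inside the gene or nearest to its start were not set beside the narrower backgrounds. Long genes also have more room for a peak inside, and Tbc1d1 and Tbc1d4, at 195.2 and 166.8 kb, were among those with one. Within 1 kb of a start there was a peak in 0 of the 9 genes and in 5.57% of all genes. These shares are counts beside a background, with no test, over 9 genes.

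Of the 7 peaks, 5 lay in introns of the genes themselves, at Irs1, Irs2, Akt2, Tbc1d1 and Tbc1d4, and 0 lay within 1 kb of the start of any gene. Among all merged Maf peaks 20.5% lay that close to a start and 59.2% lay inside any protein-coding gene. The 59.2% is not like for like with the 5 of 7, since the peak in Ttc9b also lay inside a gene. The windows also include the genes themselves, so peaks inside these genes were counted by design. H3K27ac overlapped 5 of the 7, or 71.4% (exact 95% Clopper-Pearson interval from 29.0% to 96.3%, counting error only), and 69.1% of all 5486 merged Maf peaks. Each of the 5 overlapped H3K27ac in both samples. The peaks of the set were spread through the Maf list, from the 14.0th to the 80.6th percentile with a median at the 41.4th. The 3 highest, at Irs2, in the Akt1 window and at Irs1, were also those that lay in merged H3K27ac regions over 10 kb.

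**Figure D4:**
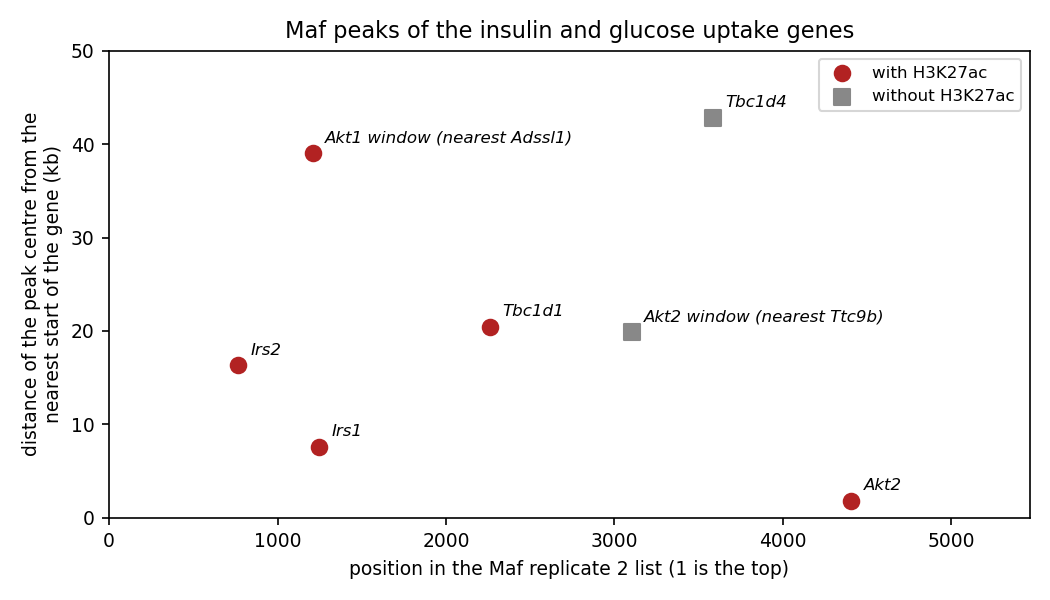
Position of each of the 7 Maf peaks in the replicate 2 list (x axis, 1 is the top of 5467) against the distance in kb of its centre from the nearest start of the gene (y axis), with circles for peaks that overlap H3K27ac and squares for those that do not. The squares are the Tbc1d4 peak and the Akt2-window peak in Ttc9b, and no peak lies within 1 kb of a start.

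The RefSeq promoter table gave 12 promoters of Slc2a1, Irs1, Irs2, Akt1, Akt2, Tbc1d1 and Tbc1d4, read over the 250 bases before the start. TGCTGA was in 3 of the 12, at Irs1, Akt1 and Akt2, and in 16.1% of all promoters of this length. CAGCTG was in 2 of the 12, at Akt2 and Tbc1d1, and in 13.0% of all. TGCTGAC, the full site, the Mef2 motif and the AP-1 site were in 0 of the 12, against 3.81%, 0.962%, 2.92% and 4.46% of all promoters.

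The same counts were made for 56 other genes of the insulin pathway and of Glut4 traffic. Of these, 31 (55.4%) had a Maf peak in the window, 25 (44.6%) had one with H3K27ac, and 21 (37.5%) had one inside the gene. Over all protein-coding genes the shares were 32.2%, 26.1% and 11.9%. H3K27ac lay at a start of 53 of the 56, against 59.6% of all genes. Of these 53 genes 30 had a Maf peak in the window, against 43.5% of all genes with H3K27ac at a start. Within 1 kb of a start, 8 of the 56 (14.3%) had a Maf peak, against 0 of the 9 and 5.57% of all genes. Whether the 2 sets differ in this was not tested. The list of replicate 1 had a peak in the window of 1 of the 56, against 0.634% of all genes. This was Aspscr1, which is named because of this value. Windows of these genes had a median of 130.5 kb, and those of the 9 genes 117.9 kb.

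Among these genes, the growth factor receptor Igf1r had an intronic peak 11531 bp downstream of a start, at position 1866, and the adaptor genes Gab1 and Grb10 had peaks centred at -117 and 1352 bp from a start, where negative values are upstream. Pik3r1, the regulatory subunit of PI3K, had a peak at -124 bp from a start in a gene whose start region was 10567 bp long. Inppl1, a lipid phosphatase that opposes PI3K, had one at -82 bp. Of the kinase complexes downstream, Rptor, the scaffold of mTORC1, had the highest position of the close peaks, 273, at 61 bp from a start. Rictor of mTORC2 had a peak at position 792 inside the gene, whose nearest gene start was that of Osmr. The transcription factor gene Foxo3, which Akt restrains, had an intronic peak at position 513, and Prkaa2, a catalytic subunit of AMP-activated kinase, one at position 952. In Glut4 traffic, the small GTPase genes Rab10, Rab13 and Rala had peaks 2269, 212 and 114 bp downstream of a start. Sort1, a sorting receptor of Glut4 vesicles, had an intronic peak at position 1830. The peaks given here, 1 for each of these genes, each overlapped H3K27ac, as did 69.1% of all merged Maf peaks. These genes were taken by list position, and close peaks of some other pathway genes lower in the list had no H3K27ac. Hk2, the hexokinase that traps glucose in the fiber, had a start region of 30657 bp and an intronic peak at position 1279, which also overlapped H3K27ac.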

How the data were processed

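The authors called peaks in each Maf and H3K27ac sample and deposited 4 lists of positions (GRCm38), whose score column is 1 for every region. The submitters' processing notes name bcl2fastq 2.17, Bowtie2 2.3.2, Picard 2.10.3, FastQC and HOMER, and the paper gives a later Bowtie2 release. The paper gives a false discovery rate for its number of Maf peaks. Whether it applies to each list, the other caller settings and the use of the inputs are not given in the sources used here.

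Lists of a target were merged, with overlap of at least 1 bp. The annotation was the GENCODE annotation of GRCm38 with 101639 transcripts of 21938 protein-coding gene entries, and sequences came from RefSeq (GRCm38.p6). The order of a list stood in for strength. The named genes are the 9 genes, genes whose start is nearest to one of their Maf peaks, and up to 15 other pathway genes with a Maf peak inside the gene or within 1 kb of a start, by position in the replicate 2 list. The result for 1 of these genes is not reported here. The genes and lists were chosen with earlier results of these data known. No test was run. Window counts, merging and motif search were tested on simulated data. Alternatives changed the window, the starts, the replicates, the list length and the overlap. The inputs were not used. Python 3.11.15, numpy 2.4.6, pandas 2.3.3, SciPy 1.17.1 and matplotlib 3.10.9 were used.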

Additional observations from a re-analysis of the deposited data

How the results depend on the processing

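All statements on Maf here rest on the replicate 2 list. Counts for leaving out each replicate of Maf ranged from 0 to 7 peaks and from 0 to 6 genes, and the value of 0 came without replicate 2. With peaks called in both replicates, 0 peaks and 0 genes were left. Within 1 kb of a start there were 0 Maf peaks, 0 genes with one and 16 H3K27ac regions instead of 107, and 8 of the 56 other pathway genes instead of 31. In the first 0.5 of each list 4 Maf peaks were left, at 4 genes, and 100% of them had H3K27ac. The share over all Maf peaks in that part of the lists was not counted, so this value has no background. Other windows, starts and replicates gave 5 to 7 Maf peaks at 5 or 6 genes and 75 to 106 H3K27ac regions, and H3K27ac was at all 9 genes throughout. The share of Maf peaks with H3K27ac was 71.4% in the other settings, including the replicate block, in which regions of replicate number 2 of both targets were set against each other. Replicate number 1 gave no such share, since it had no Maf peak at these genes. Leaving out each H3K27ac replicate, an alternative chosen after seeing the data, gave 3 to 5 genes with a start region of 5 kb or more and 1 to 2 genes with one of 10 kb or more, and the lower values came without replicate 1. Read depth is not in the lists, so absence from a list says nothing about weak binding.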
